A study of Mus musculus with 2 samples.

Results

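The colony stimulating factors and their receptors were followed through the lung of neonatal mice, in pups given a Hedgehog-blocking antibody and in pups given control IgG. The family as examined here had 7 genes, taken by their symbols from the 29004 features of the deposited count matrices. They were 3 ligands (Csf1, Il34 and Csf2) and 4 receptor genes (Csf1r, Csf2ra, Csf2rb and Csf3r). All 7 were found, each as a single feature. Their UMIs (unique molecular identifiers, each standing for 1 captured transcript) were summed over the cells of each of the 23 clusters that the authors had assigned.

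CSF1 and IL-34 are the 2 ligands of the receptor tyrosine kinase encoded by Csf1r, on which monocytes and most tissue macrophages depend. GM-CSF, encoded by Csf2, binds a specific alpha chain (Csf2ra) that signals with the common beta chain (Csf2rb), and in the newborn lung it drives fetal monocytes to become alveolar macrophages. Csf3r encodes the receptor for G-CSF, the main growth factor of neutrophils.

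Each condition was represented by 1 library, for which the lungs of 3 pups had been combined, prepared with the 10x Genomics 3' kit, version 2, so no difference below has a replicate check and no p-value is given. All pups carried 1 Gli1 allele that expresses the tamoxifen-inducible recombinase CreERT2 under the control of the Gli1 locus and 1 R26R allele with the tdTomato reporter (genotype Gli1CreERT2/+, R26RtdT/+). Tamoxifen was injected at postnatal day 1, control IgG or 5E1, an antibody against Hedgehog ligands, followed at day 3, and the animals were 6 days old at harvest. Nothing was stated about strain, sex or litter in the labels.

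The authors had kept 13509 cells with 77436890 UMIs in the IgG library and 9454 cells with 58890639 UMIs in the 5E1 library, at medians of 4541 and 4636 UMIs per cell. The pools differed in sex: 91.5% of the IgG cells and 24.2% of the 5E1 cells held Xist and no Y-linked UMI, so sex and treatment cannot be told apart in the libraries as a whole. For this reason the main ratios are also given with only the 5E1 cells that held Xist and no Y-linked UMI, set against all IgG cells. The libraries shared 184 cell barcodes. Clusters carried no names in the deposit and are called here after marker genes. Among them, all 6 neutrophil markers were highest in cluster 1, 7 of 10 alveolar macrophage markers with IgG and 8 of 10 with 5E1 in cluster 5, all 7 interstitial macrophage markers in cluster 8 and all 6 alveolar type 1 (AT1) markers in cluster 15. Cluster 7 is called dendritic-like with less certainty, since none of its 8 markers was among its 10 leading genes. Cluster 3 was a mixture of T cells, mast cells or basophils and group 2 innate lymphoid cells (ILC2), and cluster 2, called NK-like, also had all 5 T cell and all 6 ILC2 markers raised over 2-fold.

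Levels are given as CPM, the UMIs of a gene per 1000000 UMIs of the cluster. Intervals are exact 95% intervals and cover counting error only. A gene was examined for a difference between libraries where it had at least 20 UMIs over both, and a difference was counted where it passed 1.5-fold.

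The promoters of 4 members (Csf1, Csf2, Csf2ra and Csf3r) were among the RefSeq promoter windows of 300 bases for the build GRCm38.p6. They were searched on both strands for GAGGAA, a core bound by the myeloid factor PU.1, and for TGANTCA, the AP-1 site, because the receptor genes proved to be most abundant in myeloid clusters. GAGGAA was found ahead of the RefSeq start of both receptor genes that had a window, and it is shown in capitals with the flanking bases, 5′ to 3′ on the strand of the gene.
Csf3r: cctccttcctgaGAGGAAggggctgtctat
Csf2ra: caacctgcagatGAGGAAgaggaagcggga
The Csf3r stretch lies on the plus strand at chr4:126024561-126024590, with the first capital at -86 from the RefSeq start; it falls inside the Csf3r interval of the gene annotation that gives the positions of the members here, which begins further upstream. The Csf2ra stretch lies on the minus strand at chr19:61228415-61228444, with the first capital at -14, and a second copy of the 6 letters follows directly at -8. In the same gene annotation the Csf2ra interval reaches 61228429, inside this stretch. The first copy therefore spans the gene start given there, and the second lies within the gene. GAGGAA occurred in 28.3% of all 32851 windows (9289), so its presence in 2 of 4 is a description of these sequences only. TGANTCA, present in 7.81% of all windows, was in none of the 4, and neither motif was found in the windows of Csf1 or Csf2.

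Csf1, the broadly expressed ligand of Csf1r (mm10 chr3:107741048-107760469, minus strand), gave 968 UMIs in 738 cells of the IgG library and 559 UMIs in 422 cells of the 5E1 library. The cells with by far the highest level were mesothelial-like, the covering layer of the lung. In this cluster 17 Csf1 stood at 133 CPM (117 to 151; 251 UMIs) with IgG and at 91.7 CPM (76.7 to 109; 132 UMIs) with 5E1. Mesothelial-like cells made up 1.25% and 1.20% of the cells but held 25.9% and 23.6% of all Csf1 UMIs. A Csf1 UMI was seen in 55.0% of the 169 IgG cells and in 52.2% of the 113 5E1 cells of the cluster. After each cell was thinned to 1000 UMIs the shares were 12.4% and 10.6%, against 0.991% and 1.04% in endothelial-like cells.

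The 5E1 over IgG ratio of Csf1 in mesothelial-like cells was 0.687 (0.552 to 0.852), short of the 1.5-fold mark. With only the 5E1 cells that held Xist and no Y-linked UMI the level was 102 CPM (43 UMIs) and the ratio 0.761 (0.538 to 1.06), an interval that includes no difference. Adventitial fibroblast-like cells of cluster 18 came next among stromal cells, at 27.6 CPM (23.1 to 32.7) with IgG and 23.9 CPM (18.6 to 30.3) with 5E1. The smooth muscle-like cluster 22 stood at 19.6 CPM (15.2 to 24.9) and 15.3 CPM (10.9 to 20.8), within counting error of each other. Endothelial-like cells, the largest of these clusters, were at 11.3 CPM (118 UMIs) and 8.23 CPM (97 UMIs), a ratio of 0.729 (0.551 to 0.961). Fibroblast-like and smooth muscle-like clusters together held 45.9% of Csf1 UMIs with IgG and 35.1% with 5E1. Levels in the 5 myeloid clusters (1, 5, 6, 7 and 8) lay between 1.34 and 13.7 CPM.

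Cluster 3, the mixed lymphoid and granulocytic cluster, had the second highest Csf1 level, 32.2 CPM (22.3 to 45.0; 34 UMIs) with IgG and 41.1 CPM (30.3 to 54.5; 48 UMIs) with 5E1. Within it the transcript lay almost entirely in cells with mast cell or basophil genes. Cells with at least 2 UMIs of that marker list numbered 39 of 399 with IgG and 43 of 388 with 5E1, and they held 34 of 34 and 47 of 48 Csf1 UMIs. The cut was clean for this list, since no cell had exactly 2 UMIs of it and 10 and 4 cells had 1.

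The cluster was also split by granule protease genes, and most of its Csf1 lay in cells with basophil proteases. Cells with at least 2 UMIs of Mcpt8 and Prss34, proteases of mouse basophils, and fewer of the mast cell proteases numbered 24 and 26. Csf1 stood in them at 411 CPM (257 to 622; 22 UMIs) with IgG and 429 CPM (289 to 612; 30 UMIs) with 5E1, values that did not differ beyond counting error. Cells in which Cma1, Tpsb2 and Mcpt4 prevailed, proteases of connective tissue mast cells, numbered 3 and 9 and gave 0 Csf1 UMIs in each library, with intervals that reach 483 and 144 CPM. The remaining 372 and 353 cells held the other 12 and 18 UMIs, so the Mcpt8 and Prss34 cells held 22 of 34 and 30 of 48. These other UMIs came from 9 cells in each library. Their 12.1 and 16.8 CPM are averages over all remaining cells, of which 318 and 315 held the T cell gene Cd3g. By the marker list above, cells with mast cell or basophil markers held 34 of 34 and 47 of 48, so nearly all of these other UMIs lay in such cells too. The split by proteases was chosen after the values of the cluster had been seen.

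Il34, the other ligand of Csf1r (mm10 chr8:110741829-110805924, minus strand), was concentrated in few clusters, with 175 UMIs in 165 cells of the IgG library and 174 UMIs in 155 cells of the 5E1 library. Epithelial clusters held 61.1% and 59.8% of these UMIs and pericyte-like cells 18.9% and 22.99%. In alveolar type 2-like (AT2-like) cells, which make surfactant, Il34 stood at 14.6 CPM (11.4 to 18.3; 73 UMIs) with IgG and at 17.2 CPM (13.5 to 21.5; 74 UMIs) with 5E1. The ratio of 1.18 (0.840 to 1.65) did not exceed counting error. In pericyte-like cells, the mural cells of capillaries, it stood at 15.7 CPM (10.8 to 22.02; 33 UMIs) and 24.6 CPM (17.5 to 33.4; 40 UMIs), so AT2-like and pericyte-like cells could not be ranked within either library.

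The pericyte ratio of Il34, 1.57 (0.963 to 2.56), was the only ligand difference counted as higher with 5E1, and its interval included 1. Of all genes examined in that cluster, 6.28% were counted as higher and 8.39% as lower. With 5E1 cells restricted to those with Xist and no Y-linked UMI, 5 UMIs remained and the ratio was 0.81 (0.247 to 2.09), on the other side of 1. The airway epithelium of cluster 10 was lower, at 5.18 CPM (3.52 to 7.35) and 4.74 CPM (3.04 to 7.05). In each library 8 clusters had no Il34 UMI, and both macrophage clusters were at 0 or 1 UMI.

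Csf2, the GM-CSF gene (mm10 chr11:54247271-54249667, minus strand), gave 43 UMIs in 32 IgG cells and 48 UMIs in 28 5E1 cells. Clusters 2 and 3 held 67.4% and 70.8% of them. In the NK-like cluster 2 Csf2 stood at 13.4 CPM (8.49 to 20.1; 23 UMIs) with IgG and at 12.7 CPM (8.03 to 19.01; 23 UMIs) with 5E1, a ratio of 0.946 (0.507 to 1.77). In cluster 3 it stood at 5.68 CPM (2.08 to 12.4; 6 UMIs) and 9.41 CPM (4.70 to 16.8; 11 UMIs), too few to compare. AT2-like cells gave 5 and 6 UMIs, at 0.998 and 1.39 CPM, and 15 clusters in each library had none. Few cells carried the signal: up to 4 UMIs in 1 cell with IgG and up to 8 with 5E1.

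Within cluster 2 the Csf2 transcript went with ILC2 genes. Cells with at least 2 UMIs of the ILC2 list (Il1rl1, Gata3, Rora, Il7r, Areg and Arg1) numbered 101 with IgG and 95 with 5E1. They held 21 of 23 and 23 of 23 Csf2 UMIs, at 32.5 CPM (20.1 to 49.6) and 28.8 CPM (18.3 to 43.3). The other 147 and 101 cells held 2 and 0 UMIs. Divided by T and NK genes instead, 157 and 126 cells with more T than NK marker UMIs held 22 and 21 Csf2 UMIs, and 77 and 52 cells with more NK marker UMIs held 1 and 0.

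In cluster 3 likewise 5 of 6 IgG UMIs and 11 of 11 5E1 UMIs of Csf2 lay in cells with at least 2 ILC2 marker UMIs. These were cells that also carried T cell markers, 95 with IgG and 112 with 5E1. Rora, Il7r and Gata3 are also made by T cells, so the lists do not separate ILC2 from T cells here. The ILC2 range is not sharp, since 34 and 54 cells of cluster 3 held exactly 2 UMIs of the list and 92 and 99 held 1.

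**Figure D1:**
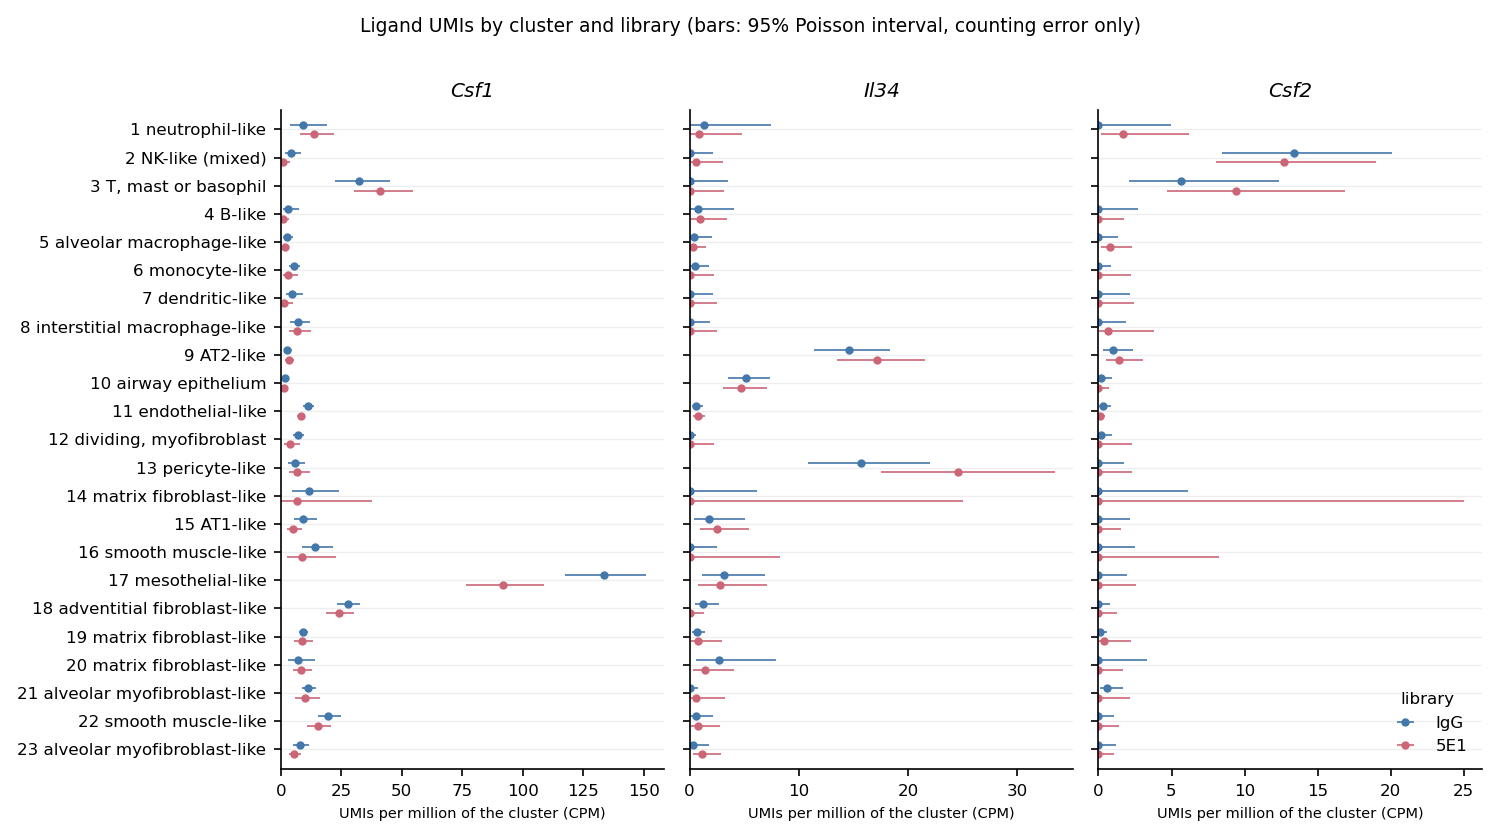
CPM of Csf1, Il34 and Csf2 in the 23 clusters (rows) of the IgG and 5E1 libraries on linear axes; points are UMIs summed over the cells of a cluster and scaled to its total, and bars exact 95% Poisson intervals. Csf1 peaked in the mesothelial-like cluster (133 and 91.7 CPM), Il34 in pericyte-like and AT2-like cells (14.6 to 24.6 CPM) and Csf2 in cluster 2 (13.4 and 12.7 CPM).

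Csf1r, the receptor of CSF1 and IL-34 (mm10 chr18:61100598-61132149, plus strand), gave 4762 UMIs in 1820 IgG cells and 3667 UMIs in 1228 5E1 cells. The myeloid clusters 1, 5, 6, 7 and 8 held 86.3% and 88.7% of them, while making up 21.7% and 24.4% of cells and 14.6% and 16.3% of all UMIs. Interstitial macrophage-like cells of cluster 8, the macrophages of the lung tissue outside the airspace, had the highest level. Csf1r stood there at 867 CPM (826 to 909; 1703 UMIs) with IgG and at 1091 CPM (1601 UMIs) with 5E1, a ratio of 1.26 (1.18 to 1.35). Thinned to 1000 UMIs per cell, 56.6% (50.9 to 62.1%) and 67.1% (60.7 to 73.1%) of the cells held a Csf1r UMI. The ratio was 1.27 (1.14 to 1.41) with only the 5E1 cells that held Xist and no Y-linked UMI. It exceeded counting error and stayed below 1.5-fold.

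Monocyte-like cells of cluster 6 came second, at 421 CPM (402 to 441; 1744 UMIs) with IgG and 600.4 CPM (564 to 639; 1000 UMIs) with 5E1. Their ratio of 1.43 (1.32 to 1.54) was the largest for Csf1r among the myeloid clusters. Restricted to 5E1 cells with Xist and no Y-linked UMI it was 1.12 (0.935 to 1.32). Dendritic-like cells followed, at 226 CPM (204 to 250) and 212 CPM (189 to 236), and did not differ beyond counting error. In this cluster 131 of 259 and 100 of 200 cells held no interstitial macrophage marker UMI. Csf1r stood in those cells at 86.1 CPM (67.2 to 109) and 60.5 CPM (44.1 to 80.9). The part of macrophage transcripts in the level of the whole cluster was not tested. Alveolar macrophage-like cells stood far lower than the whole dendritic-like cluster, at 84.1 CPM (73.6 to 95.6; 232 UMIs) and 63.6 CPM (55.8 to 72.2; 241 UMIs), a ratio of 0.757 (0.629 to 0.910). Neutrophil-like cells were at 58.8 CPM (42.8 to 79.0; 44 UMIs) and 78.5 CPM (63.3 to 96.2; 92 UMIs), with intervals that overlapped between the libraries and with alveolar macrophage-like cells.

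Monocyte marker genes of this cluster differed between the libraries, though not all in 1 direction. Ly6c2, the best known marker of classical monocytes, stood at 2129 CPM with IgG and at 973 CPM with 5E1. Of the other 5 classical markers, Plac8 stood at 9863 and 5949 CPM and Vcan at 36.9 and 27.6 CPM. Ccr2 (283 and 256 CPM) and Hp (588 and 663 CPM) differed less, and F13a1 went the other way, at 63.5 and 116 CPM. All 6 nonclassical markers were higher with 5E1: Spn (72.4 and 104 CPM), Ace (143 and 216), Adgre4 (144 and 205) and Cd300e (29.5 and 55.2) more so than Treml4 (192 and 214) and Nr4a1 (561 and 643). Cells were therefore divided at 2 Ly6c2 UMIs, a split chosen after the values of the whole cluster had been seen.

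Among cells with 2 or more Ly6c2 UMIs, 653 with IgG and 137 with 5E1, Csf1r stood at 321 CPM (301 to 342; 951 UMIs) and 312 CPM (273 to 355; 233 UMIs). The ratio there was 0.97 (0.84 to 1.12). Among cells with 0 or 1 Ly6c2 UMI, 417 and 281, Csf1r stood at 671 CPM (625 to 720; 793 UMIs) and 835 CPM (777 to 896; 767 UMIs), a ratio of 1.24 (1.12 to 1.38). In both libraries the Ly6c2-poor cells had more Csf1r, as CPM, than the Ly6c2-rich cells.

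Outside the myeloid clusters, Csf1r was highest in AT1-like cells, which form the thin gas exchange barrier. It stood at 61.2 CPM (50.1 to 74.1; 105 UMIs) in the IgG library and at 51.4 CPM (42.7 to 61.3; 123 UMIs) in the 5E1 library, with a ratio of 0.839 (0.641 to 1.10). A UMI was present in 69 of 287 and 97 of 443 cells, at medians of 4919 and 4093 UMIs per cell. After thinning to 1000 UMIs the shares were 5.04% (2.78 to 8.31%) and 5.37% (3.44 to 7.95%). The same share was 0.826% and 0.401% in endothelial-like cells, at medians of 4445 and 4691.5 UMIs, and in the remaining non-myeloid clusters it reached at most 1.44% with IgG and 2.65% with 5E1.

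Transcripts of macrophages were examined beside this value. Complement C1qa, C1qb and C1qc together are abundant in interstitial macrophage-like cells, and in the other 17 non-myeloid clusters Csf1r amounted to between 9.18 and 46.2 UMIs per 100 C1q UMIs with IgG. In AT1-like cells it amounted to 124 per 100 with IgG and 586 per 100 with 5E1, where the highest other value, 100, rested on 1 UMI of each. Cells with no UMI of any interstitial macrophage marker numbered 259 and 415, and Csf1r in them stood at 55.5 CPM (44.0 to 69.1; 80 UMIs) and 49.7 CPM (40.8 to 60.1; 107 UMIs), close to the value of the whole cluster. In the cells that held a Csf1r UMI the AT1 gene Ager stood at 15410 and 16405 CPM, against 17427 and 17529 CPM in the AT1-like cells without one. Macrophage and myeloid genes were higher in the IgG cells with a Csf1r UMI than in those without, C1qa at 46.9 against 3.72 CPM, Tyrobp at 203 against 58.6 CPM and Lyz2 at 2685 against 682 CPM. With 5E1 the same pairs were closer, at 6.24 against 2.51, 72.3 against 62.1 and 884 against 568 CPM. Sftpc, the AT2 gene, was higher in cells with a Csf1r UMI in both libraries (23716 against 12931 and 20618 against 9898 CPM). The part of RNA from other cells or of doublets in the Csf1r value was not tested beyond the marker-free cells above. A single IgG cell held 12 of the 105 UMIs. Hmgxb3, a gene that overlaps Csf1r on the opposite strand, was at 8.75 and 6.68 CPM in AT1-like cells, within its range of 1.34 to 13.4 CPM in the other clusters.

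**Figure D2:**
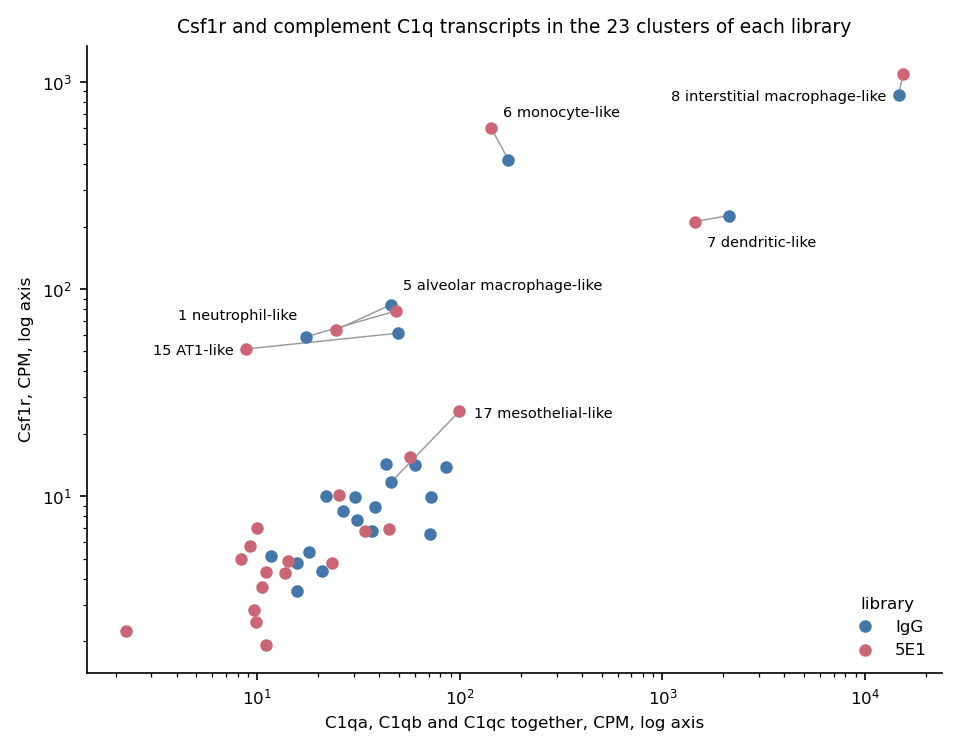
Csf1r CPM (y) against the summed CPM of C1qa, C1qb and C1qc (x), both on log axes, for the 23 clusters of each library; grey lines join the libraries of named clusters. AT1-like cells lay at 61.2 and 51.4 CPM of Csf1r with 124 and 586 Csf1r UMIs per 100 C1q UMIs, apart from the other non-myeloid clusters, which lay at lower Csf1r for their C1q.

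In mesothelial-like cells Csf1r stood at 11.7 CPM (7.33 to 17.7; 22 UMIs) with IgG and 25.7 CPM (18.1 to 35.4; 37 UMIs) with 5E1, a ratio of 2.20 (1.26 to 3.91). C1qa, C1qb and C1qc moved with it, at ratios of 2.11, 1.92 and 2.56 in the same cluster. Of all genes of the cluster, 8.32% were higher and 9.43% lower by the same rule. In cells without an interstitial macrophage marker UMI the levels were 5.26 CPM (8 UMIs) and 20.1 CPM (23 UMIs). The part of macrophage transcripts in this difference was not tested.

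Csf2ra, the GM-CSF receptor alpha chain (mm10 chr19:61223957-61228429, minus strand), gave 2894 UMIs in 2052 IgG cells and 2026 UMIs in 1375 5E1 cells, of which myeloid clusters held 68.1% and 77.2%. It was spread more evenly over the myeloid clusters than Csf1r, within a range of 90.9 to 223 CPM. Dendritic-like cells stood at 223 CPM (201 to 247; 380 UMIs) with IgG and 180 CPM (159 to 203; 269 UMIs) with 5E1, a ratio of 0.805 (0.686 to 0.943). Monocyte-like cells stood at 216 CPM (202 to 231) and 217 CPM (195 to 240), the same within counting error, and could not be ranked against dendritic-like cells with IgG. With only the 5E1 monocyte-like cells that held Xist and no Y-linked UMI the level was 126 CPM and the ratio 0.584 (0.413 to 0.805).

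Interstitial macrophage-like cells stood at 142 CPM (126 to 160) and 138 CPM (120 to 159) of Csf2ra. Alveolar macrophage-like cells stood at 126 CPM (113 to 140; 348 UMIs) with IgG and 153 CPM (141 to 166; 580 UMIs) with 5E1, a ratio of 1.21 (1.06 to 1.39), and neutrophil-like cells at 90.9 CPM (70.6 to 115; 68 UMIs) and 129 CPM (109 to 151; 151 UMIs), a ratio of 1.42 (1.06 to 1.92). Both were higher with 5E1 beyond counting error and neither passed 1.5-fold. Low counts were present in every other cluster, including 20.8% and 11.8% of all Csf2ra UMIs in fibroblast-like and smooth muscle-like cells.

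In B-like cells Csf2ra stood at 20.4 CPM (13.6 to 29.5; 28 UMIs) with IgG and 7.67 CPM (4.38 to 12.5; 16 UMIs) with 5E1, which is 2.66-fold lower. Csf2rb went the other way in the same cluster, from 18.2 CPM (11.8 to 26.9; 25 UMIs) to 35.0 CPM (27.4 to 44.0; 73 UMIs), a ratio of 1.92 (1.21 to 3.16). Of all genes of the cluster, 7.83% were higher and 10.5% lower by the same rule. Beside these values, C1qa, C1qb and C1qc stood in B-like cells at ratios of 0.17, 0.09 and 0.24, and the neutrophil genes S100a8 and S100a9 at 2.08 and 2.62. Among other genes of the pathway, Cish, a feedback inhibitor induced by STAT5, stood there at 8.75 CPM (12 UMIs) with IgG and 18.7 CPM (39 UMIs) with 5E1. The part of transcripts from other cells in these values was not tested.

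Csf2rb, the beta chain shared by the receptors of GM-CSF, IL-3 and IL-5 (mm10 chr15:78325752-78353847, plus strand), gave 2068 UMIs in 1463 IgG cells and 1925 UMIs in 1225 5E1 cells. Its highest level was in alveolar macrophage-like cells, at 251 CPM (233 to 271; 694 UMIs) with IgG and 258 CPM (242 to 274; 976 UMIs) with 5E1. The ratio was 1.02 (0.928 to 1.13), and the thinned share of cells with a UMI was 24.3% (21.6 to 27.1%) and 24.1% (21.4 to 26.9%), at medians of 2313 and 3126.5 UMIs per cell and against 0.495% and 0.401% in endothelial-like cells, so the libraries did not differ beyond counting error in this cluster. These cells held 33.6% of all Csf2rb UMIs with IgG and 50.7% with 5E1, and made up 7.54% and 10.6% of the cells.

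Dendritic-like cells stood at 158 CPM (139 to 178) and 147 CPM (128 to 168) of Csf2rb, monocyte-like cells at 127 CPM (116 to 138) and 122 CPM (106 to 140), and interstitial macrophage-like cells at 101 CPM (87.2 to 116) and 117 CPM. None of these 3 differed between libraries beyond counting error. Neighbours in this order overlapped with 5E1, and alveolar macrophage-like cells stood above all others in both libraries. Neutrophil-like cells were at 38.8 CPM (26.0 to 55.7; 29 UMIs) and 47.8 CPM (36.1 to 62.0; 56 UMIs).

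Cluster 3 held a further Csf2rb signal, 37.9 CPM (27.0 to 51.5; 40 UMIs) with IgG and 27.4 CPM (18.7 to 38.7; 32 UMIs) with 5E1. Cells with mast cell or basophil markers held 77.5% and 93.8% of it. The Mcpt8 and Prss34 cells, which held most of the Csf1, stood at 336 CPM (18 UMIs) and 315 CPM (22 UMIs) of Csf2rb. The rodent paralog Csf2rb2 is near-identical over part of its length: 7.18% of the 4803 words of 98 bases in the Csf2rb transcript occur in Csf2rb2 too. None of the 403 words in the last 500 bases did, and the 3' kit reads mostly there.

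Alpha and beta chain were looked for in the same cells after thinning to 2000 UMIs. Csf2ra and Csf2rb were both seen in 9.77% and 10.7% of alveolar macrophage-like cells, in 10.7% and 12.5% of dendritic-like cells and in 6.85% and 7.14% of monocyte-like cells. Neutrophil-like cells had both in 2.44% and 0.90%. Shallower cells were left out, 92 of 256 and 231 of 454 neutrophil-like cells and 415 of 1019 and 185 of 1004 alveolar macrophage-like cells, so these shares describe the deeper cells. Csf1r together with Csf2ra was seen in 19.4% and 16.3% of interstitial macrophage-like cells and in 17.4% and 22.3% of monocyte-like cells, against 3.48% and 4.40% of alveolar macrophage-like cells. At this depth none of the 4 receptor transcripts was seen in 39.2% and 38.7% of alveolar macrophage-like cells and in 9.68% and 8.15% of interstitial macrophage-like cells.

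**Figure D3:**
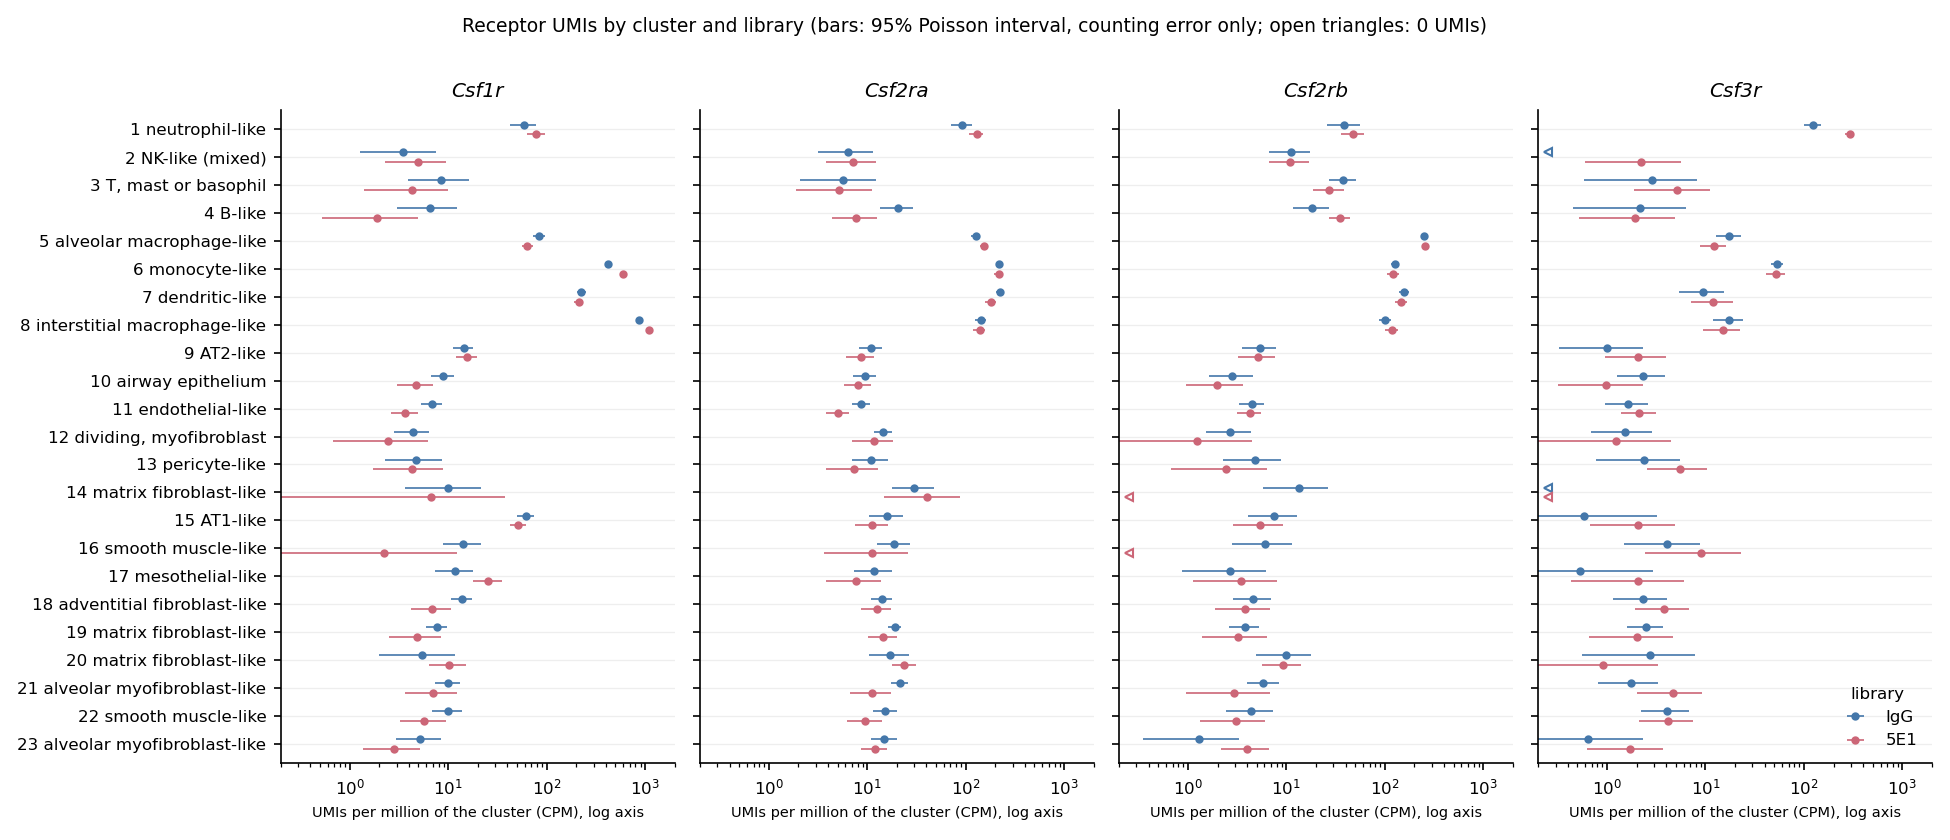
CPM of Csf1r, Csf2ra, Csf2rb and Csf3r in the 23 clusters (rows) of both libraries on log axes; bars are exact 95% Poisson intervals and open triangles mark 0 UMIs. Csf1r peaked in interstitial macrophage-like cells (867 and 1091 CPM), Csf2rb in alveolar macrophage-like cells (251 and 258 CPM) and Csf3r in neutrophil-like cells (123 and 293 CPM), while Csf2ra spanned 90.9 to 223 CPM over the 5 myeloid clusters.

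Csf3r, the G-CSF receptor (mm10 chr4:126024550-126044440, plus strand), gave 536 UMIs in 454 IgG cells and 635 UMIs in 456 5E1 cells. It was highest in neutrophil-like cells, at 123 CPM (99.2 to 151; 92 UMIs) with IgG and 293 CPM (263 to 326; 344 UMIs) with 5E1. The ratio of 2.39 (1.89 to 3.04) was the largest of any receptor in a myeloid cluster and the only one past 1.5-fold there. A UMI was seen in 28.5% of 256 IgG cells and 45.6% of 454 5E1 cells, and in 16.1% (11.7 to 21.4%) and 32.9% (28.4 to 37.5%) after thinning to 1000 UMIs. Their median depth was 2456.5 and 1964.5 UMIs per cell, and the thinned share was 0.0826% and 0.0802% in endothelial-like cells. Restricted to 5E1 cells with Xist and no Y-linked UMI the level was 172 CPM (35 UMIs) and the ratio 1.40 (0.922 to 2.09). That restriction kept 59 of 454 cells, while 124 of the 256 IgG cells held Xist and no Y-linked UMI, so it is not a comparison within 1 sex.

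Monocyte-like cells were second, at 53.1 CPM (46.3 to 60.6; 220 UMIs) and 51.6 CPM (41.3 to 63.8; 86 UMIs) of Csf3r, and did not differ. The cluster holding most Csf3r UMIs differed between the libraries, as did both the level in neutrophil-like cells and the numbers of cells, 1070 and 418 monocyte-like and 256 and 454 neutrophil-like. Monocyte-like cells held 41.0% with IgG and 13.5% with 5E1, and neutrophil-like cells 17.2% and 54.2%. All other clusters were at 17.4 CPM or less.

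The neutrophil-like cells were divided by the share of their UMIs from Ngp, Camp and Ltf, granule protein genes of immature neutrophils, a split chosen after the values of the cluster had been seen. Cells with 1% or more, the immature range, numbered 142 with IgG and 144 with 5E1. Cells with under 0.1%, here called the low range, numbered 95 and 269. The low range is defined only by the scarcity of these transcripts. In it 83 of 95 IgG cells and 258 of 269 5E1 cells held an S100a8 UMI, and 42 and 186 a Retnlg UMI. The immature range made up 55.5% of the cluster with IgG and 31.7% with 5E1, and the low range 37.1% and 59.3%. Of the 59 5E1 cells with Xist and no Y-linked UMI, 26 were in the immature and 26 in the low range, so that restriction also changed the balance of the ranges.

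In the immature range Csf3r stood at 58.7 CPM (39.3 to 84.3; 29 UMIs) and 57.1 CPM (39.8 to 79.4; 35 UMIs), a ratio of 0.97 (0.58 to 1.65). In the middle range, with 19 and 41 cells, it stood at 309 CPM (13 UMIs) and 224 CPM (25 UMIs), a ratio of 0.72 (0.36 to 1.54). In the low range it stood at 236 CPM (175 to 312; 50 UMIs) and 635 CPM (563 to 713; 284 UMIs), a ratio of 2.69 (1.98 to 3.70). The libraries thus differed in Csf3r in the low range, and in how many cells fell in it.

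Other transcripts moved with Csf3r in the low range, the other 3 receptor genes among them. Csf1r stood at a ratio of 2.95 (1.39 to 7.22) from 8 and 50 UMIs. Csf2rb stood at 2.76 (1.15 to 8.02) from 6 and 35 UMIs. Csf2ra stood at 1.74 from 16 and 59 UMIs, with an interval (0.990 to 3.25) that included 1. The calprotectin gene S100a8 stood at 32052 and 77150 CPM and the chemokine receptor gene Cxcr2 at 246 and 539 CPM. The neutrophil genes S100a9, Retnlg, Mmp8 and Mmp9 stood at ratios of 2.20, 2.07, 2.24 and 2.41. Cebpe stood at 1.32 (0.782 to 2.33). Hbb-bs, a haemoglobin gene of red cells, stood at 10032 CPM with IgG and 1828 CPM with 5E1, and the AT2 gene Sftpc at 841 and 610 CPM. Median depth was 1240 and 1376 UMIs per cell. How far RNA of other cells lowered the IgG value was not tested.

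**Figure D4:**
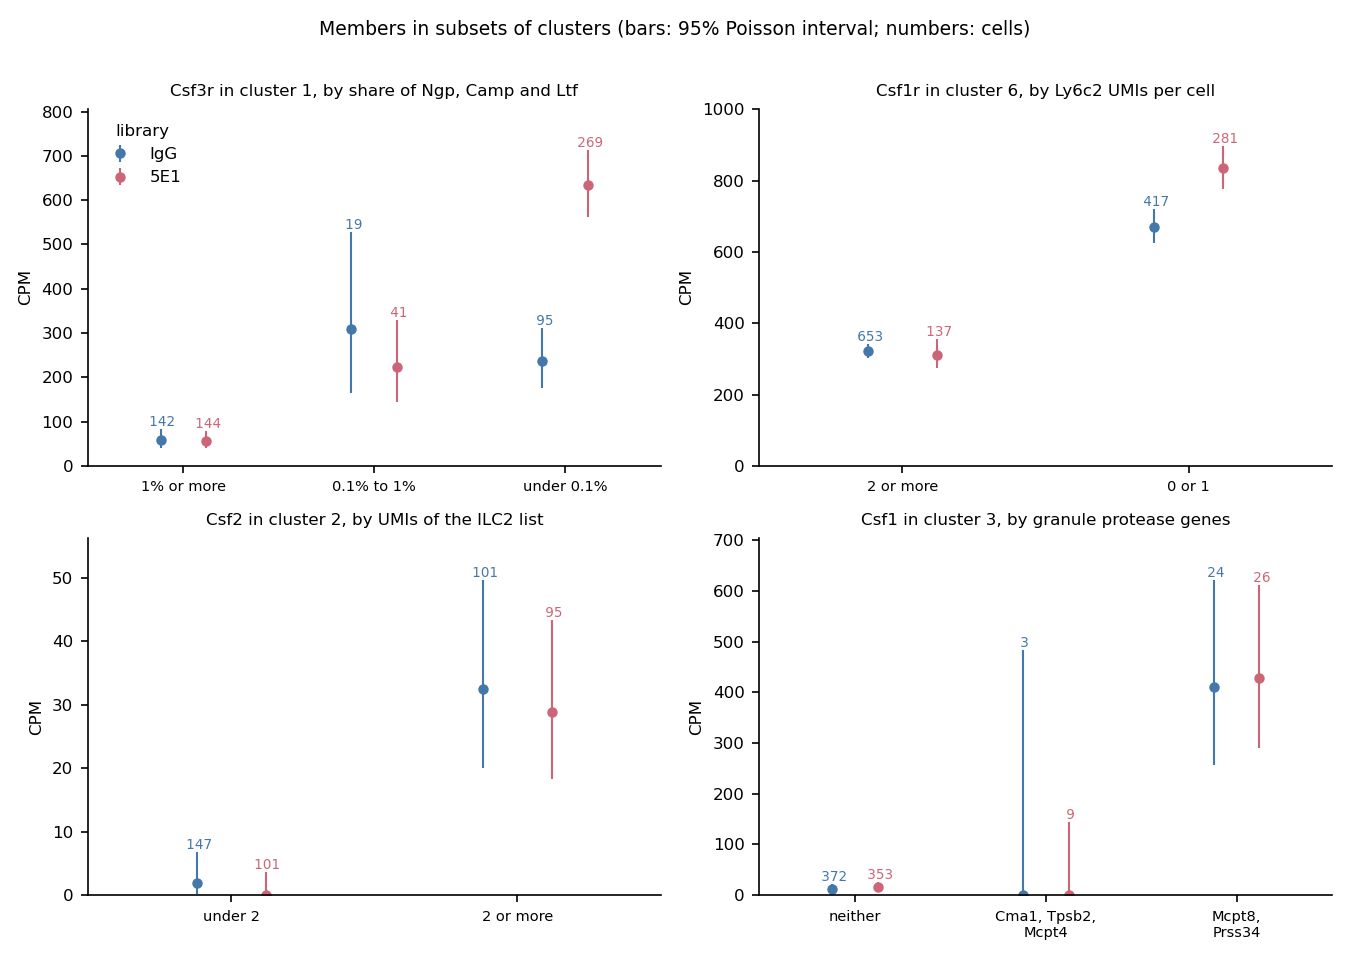
CPM of 4 members within subsets of clusters in both libraries on linear axes, with exact 95% Poisson intervals and the number of cells above each point. Csf3r differed between the libraries in neutrophil-like cells with under 0.1% of Ngp, Camp and Ltf (236 and 635 CPM). In those with 1% or more it did not (58.7 and 57.1 CPM). Among the protease subsets of cluster 3, Csf1 had its highest value in Mcpt8 and Prss34 cells (411 and 429 CPM).

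Over all clusters, 87 of the 161 pairs of a member and a cluster had at least 20 UMIs. Of these, 6 were at least 1.5-fold higher and 19 at least 1.5-fold lower with 5E1, or 6.90% and 21.8%. Over all 221033 pairs of a gene and a cluster the shares were 7.07% higher and 10.5% lower. Receptors in the myeloid clusters 1, 5, 6, 7 and 8 gave 20 pairs, of which 1 was higher (Csf3r in neutrophil-like cells) and 0 lower, with a median log2 ratio of 0.02, where 7.32% of all pairs in those clusters were higher and 11.7% lower. Receptors in the other 18 clusters gave 46 pairs, of which 4 were higher and 15 lower, with a median of -0.36, where 7.02% of all pairs in those clusters were higher and 10.2% lower. Ligands gave 21 pairs, of which 1 was higher and 4 lower, with a median of -0.12. The lower ones were Csf1 in clusters 6, 12, 15 and 16, each with an interval that included 1.

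The 15 lower receptor pairs came from clusters in which these transcripts were scarce, Csf1r in 8 clusters, Csf2ra in 6 and Csf2rb in 1, with 22 to 150 UMIs over both libraries and a median of 49. The interval included 1 for Csf1r in clusters 12, 19, 22 and 23, Csf2ra in clusters 16, 17 and 22 and Csf2rb in cluster 21. The shares over all pairs cover every gene with at least 20 UMIs, not only scarce ones. Beside the lower receptor pairs, the summed level of 20 myeloid marker genes was lower with 5E1 in 13 of the 18 non-myeloid clusters, with a median ratio of 0.919 and a range of 0.452 to 1.44. The part of free myeloid RNA in these receptor values was not tested.

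**Figure D5:**
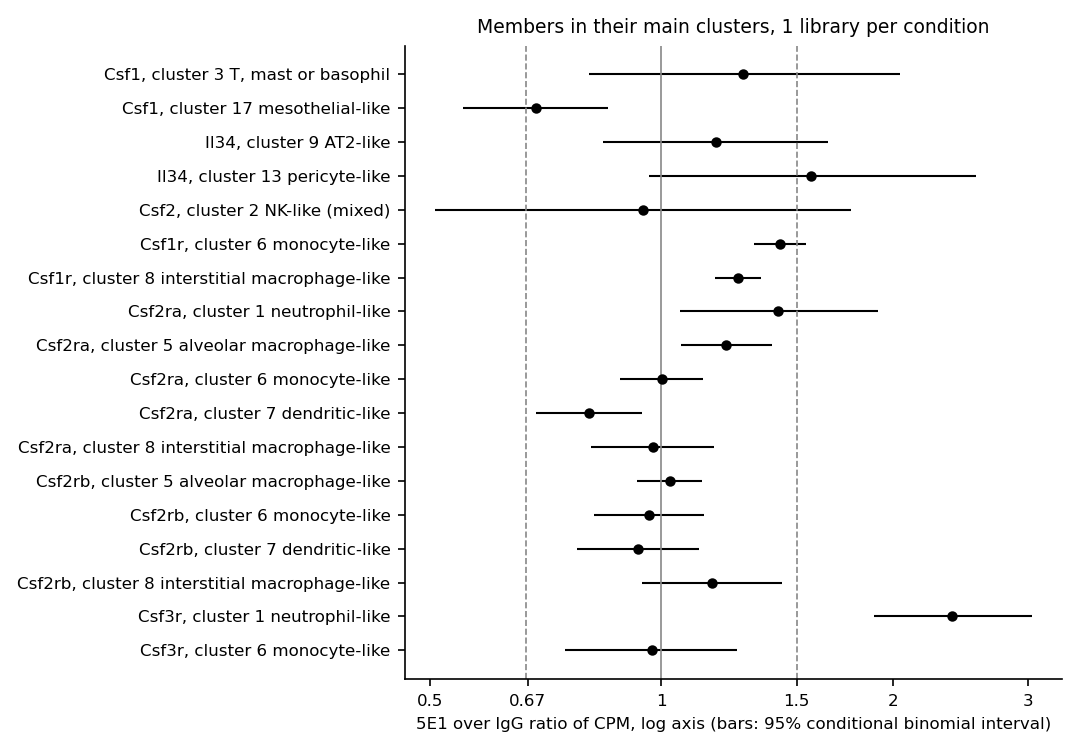
Ratio of CPM, 5E1 over IgG, on a log axis for each member in its main clusters; bars are exact conditional binomial 95% intervals, the solid line marks 1 and dashed lines 1.5-fold in either direction. Csf3r in neutrophil-like cells (2.39) lies past 1.5-fold with its whole interval; Il34 in pericyte-like cells (1.57) passes it with an interval that includes 1.

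A list of 61 further genes of these pathways was examined in the myeloid clusters. In neutrophil-like cells 33 had at least 20 UMIs, of which 7 were higher and 4 lower with 5E1, beside 10.5% and 19.9% of all genes of the cluster. Of 9 genes taken as dependent on G-CSF, 3 were higher and 0 lower. These were Mmp9, a gelatinase of late granules, at 433 and 699 CPM, Cxcr2 at 162 and 290.0 CPM, and Retnlg at 10513 and 17186 CPM. Short of 1.5-fold, Camp (0.706; 0.692 to 0.721) and Ngp (0.832; 0.816 to 0.849) were lower with 5E1 beyond counting error. Mmp8 (1.41), S100a8 (1.12) and S100a9 (1.12) were higher, and Ltf stood at 0.978. As given above, the low range made up 37.1% of this cluster with IgG and 59.3% with 5E1. Cebpb, a transcription factor of emergency granulopoiesis, stood at 58.8 CPM (44 UMIs) and 189 CPM (221 UMIs), a ratio of 3.204 (2.31 to 4.54). Socs3, the feedback inhibitor of the G-CSF receptor, stood at 90.9 and 136 CPM, a ratio of 1.501 (1.12 to 2.02). Its ratio was also past 1.5-fold in pericyte-like (1.75), dendritic-like (1.61) and interstitial macrophage-like (1.57) cells. It was 1.14 in alveolar macrophage-like cells, 0.881 in mesothelial-like cells and 0.841 in the NK-like cluster 2. The macrophage genes C1qa (2.30) and C1qb (3.70) were the other 2 counted as higher, from 5 UMIs each with IgG. The 4 lower genes were Cish, the STAT5 feedback gene (0.589), Cbl, a ubiquitin ligase that acts on activated receptors (0.599), Irf8 (0.361) and Lyve1 (0.219).

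In alveolar macrophage-like cells 47 of the 61 were examined, 9 higher and 5 lower, beside 5.82% and 6.54% of all genes there. Of 8 genes taken as dependent on GM-CSF, 1 was higher and 0 lower: Fabp4, a lipid carrier, at 64.1 and 98.7 CPM. Short of 1.5-fold, the others went both ways. Marco (0.679; 0.606 to 0.761), Car4 (0.749; 0.675 to 0.832) and Cidec (0.840; 0.716 to 0.985) were lower with 5E1. Plin2 (1.29), Ear1 (1.19) and Ear2 (1.07) were higher, and Chil3 stood at 0.967. Pparg, the GM-CSF-induced regulator of alveolar macrophage identity, stood at 77.2 and 74.4 CPM. Of the 9 higher genes, 5 were neutrophil genes (S100a8, S100a9, Cxcr2, Ngp and Retnlg). S100a8 and S100a9 did not move in 1 direction over the other clusters. They were higher in pericyte-like cells, at ratios of 3.11 and 2.78, and in AT1-like cells, at 2.25 and 2.04. In the NK-like cluster 2 they stood at 0.548 and 0.643, and in mesothelial-like cells at 0.795 and 0.588. The part of free neutrophil RNA in these values was not tested. Of the 5 lower genes, C1qa stood at 20.3 and 7.39 CPM and Cx3cr1 at 6.52 and 1.06 CPM.

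In monocyte-like cells 50 were examined, 10 higher and 8 lower, beside 6.71% and 13.1% of all genes there. The list of genes dependent on GM-CSF had 7 of its 8 members examined, 5 higher and 0 lower. The scavenger receptor gene Marco stood at 28.3 CPM (117 UMIs) and 106 CPM (176 UMIs), a ratio of 3.74 (2.94 to 4.77), and the ribonuclease genes Ear1 and Ear2 at 44.7 and 202 CPM with IgG and 98.5 and 338 CPM with 5E1. Cx3cr1, the fractalkine receptor gene of nonclassical monocytes, stood at 77.8 and 143 CPM. Its ratio was 1.41 (1.15 to 1.72) in cells with 0 or 1 Ly6c2 UMI. In cells with 2 or more it was 0.829 (0.526 to 1.26). Ngp, Camp and Ltf were lower, at ratios of 0.442, 0.510 and 0.346. Irf8, which directs monocyte and dendritic cell fate, was at 185 and 108 CPM.

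In interstitial macrophage-like cells 43 were examined, 8 higher and 7 lower, beside 8.61% and 11.5% of all genes there. None of the 8 genes taken as dependent on CSF1R passed 1.5-fold, with C1qa at 5929 and 6124 CPM and Mrc1, the mannose receptor gene, at 413 and 477 CPM. Of 10 myeloid transcription factor genes examined, 4 were higher and 0 lower. Among them were Cebpa (ratio 1.80), Cebpb (2.18) and Pparg (2.53 from 9 and 17 UMIs). Of the lower genes, Jak2, the kinase of the GM-CSF receptor, stood at a ratio of 0.470 and Il3ra, the IL-3 receptor alpha chain, at 0.540. Cebpb was past 1.5-fold in dendritic-like (1.57) and monocyte-like (1.94) cells as well. In dendritic-like cells 48 were examined, 5 higher and 5 lower, beside 6.38% and 11.2% of all genes there. Of the genes taken as dependent on GM-CSF, 7 were examined there, 2 higher and 2 lower. Marco was 1 of the lower, at a ratio of 0.339 (0.288 to 0.397) from 671 and 200 UMIs.

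The remaining ligands of these receptors were scarce. Csf3, the G-CSF gene, gave 10 UMIs in each library over all cells, and Il3 gave 0. Il5, which signals through Csf2rb, gave 53 UMIs with IgG and 28 with 5E1.

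Patterns over the 23 clusters were compared for members with at least 200 UMIs over both libraries, as Pearson r of log2(CPM + 1) over clusters, taking the lower r of the 2 libraries among 13344 genes. These correlations share libraries and clusters and are descriptions. The most similar genes to Csf1r were Clec4a3 (r 0.914), Ptpro, Clec4a1, Ifi204 and AI607873 (0.885). For Csf2ra they were Mpeg1 (0.918), Wfdc17, Tlr13, C130050O18Rik and Klra2 (0.883), for Csf2rb Ctss (0.937), Tyrobp, Cyba, Cfp and Bcl2a1b (0.911), and for Csf3r Il1b (0.923), Msrb1, F630028O10Rik, Igsf6 and 1600010M07Rik (0.878). The ligands had less similar genes: Gabbr1 (0.744), Sfmbt2, Calcb, Timp2 and Dctn6 (0.695) for Csf1, and 5430416O09Rik (0.727), Plekhd1, Stx19, Adora1 and Krt23 (0.687) for Il34.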

How the data were processed

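Per the submitters' processing notes the authors used Cell Ranger 3.1.1 with mm10, while software version 3.0.0 stands in the headers of the matrices. What they deposited are whole-number counts of UMIs for every feature and barcode, not normalized. The authors' table of annotated cells gives the library and cluster of each kept cell; its header is shifted, so these columns were identified from their values. Alignment and cell-calling settings: not given in the sources used here. No doublet caller was run; leaving out cells above the 95th percentile of UMIs was an alternative.

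Per library and cluster, UMIs of each gene were summed over kept cells (Python 3.11.15, pandas 2.3.3, scipy 1.17.1) and divided by the cluster total. Levels have exact Poisson, ratios exact conditional binomial and shares exact Clopper-Pearson intervals at 95%; all cover counting error only, and reads of 1 library are not replicates. The ratio scripts were tested on simulated data. Log2 ratios have 0.5 UMI added to each sum. Thinning draws 1000 UMIs per cell and leaves shallower cells out. The genes named are the members, the listed pathway genes with at least 20 UMIs, the 5 most similar genes of each member with at least 200 UMIs, and markers. Members and lists were chosen with earlier results of these data known. Csf1r overlaps Hmgxb3 on the opposite strand, and the 3' kit keeps the strand. 1 gene of the pathway list is counted but not reported by name here.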

Additional observations from a re-analysis of the deposited data

How the results depend on the processing

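Of 239 values under alternative settings, 189 stayed within the main value's interval or count range and 48 moved beyond it; in 2 more, a value past 1.5-fold took the other sign. Il34 in pericyte-like cells had a log2 ratio of 0.64, which was -0.19 with only 5E1 cells holding Xist and no Y-linked UMI and 1.55 after thinning to 1000 UMIs. Csf3r in neutrophil-like cells (1.25) was 0.50 with those 5E1 cells and -0.044 among cells with Ngp, Camp and Ltf at 1% of UMIs or more, a subset chosen after seeing the data. Csf2 in cluster 2 (-0.08) was 4.04 after thinning, which left 0 UMIs with IgG. Csf2ra in monocyte-like cells (0.00) was -0.76 with the Xist cells and -0.35 after thinning. Pairs higher with 5E1 numbered 6, against 12 at a minimum of 10 UMIs and 2 at 2-fold, and pairs lower 19, against 7 at a minimum of 50 UMIs and 2 at 2-fold. A lower minimum admits more pairs, and a higher minimum or fold fewer, by construction; for the other values the cause was not tested. Csf1r in monocyte-like cells (0.51) was 0.16 with the Xist cells and 0.75 after thinning. Csf1 in the cells of cluster 3 with mast cell or basophil markers alone stood at 668 CPM with 5E1, 435 CPM without regard to the ILC2 list. Scaling by the median ratio of genes moved no cluster by over 0.1 on the log2 scale. No paired analysis was possible because each condition has 1 library. Members with few UMIs, Csf2 above all, allow only differences of several fold to be seen.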
